A study of Mus musculus with 4 samples.

Results

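MHC class I molecules are described here as 10 genes of the 27998 in the deposited matrices, of which 16316 had at least 1 UMI in a kept cell. The genes were chosen by name and not by their values, though earlier results of these data were known. They are the classical heavy chains H2-K1 and H2-D1, the nonclassical heavy chains H2-Q4, H2-Q6, H2-Q7, H2-T22, H2-T23 and H2-M3, the shared light chain B2m, and Nlrc5, the transactivator of class I genes. A UMI (unique molecular identifier) marks 1 captured transcript, so that its copies are counted once.

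The cells were microglia, the resident macrophages of the brain, from C57BL/6 mice. The labels give the age P21 for all of them, which is taken here as the age at treatment. On that reading, the mice of the libraries at 1 week were about 1 week older at collection than those at 6 h. Transcripts were counted cell by cell with the 10x Genomics Chromium droplet method. There were 4 libraries, each from 4 pooled mice: sham controls and mice irradiated with a single whole-brain dose of 8 Gy, each at 6 h and at 1 week. The labels name the source as brain, while the design text speaks of hippocampal microglia, and neither the sex of the mice nor the way the cells were isolated is known here. With 1 library per group there was no test, and all intervals below are 95% intervals that cover counting error only, not the spread between mice or libraries.

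A class I molecule is a heavy chain bound to the light chain beta-2 microglobulin, with a short peptide from inside the cell in its groove. CD8 T cells read this peptide on the classical molecules, and receptors of natural killer cells and of other lymphocytes read several of the nonclassical ones. Nearly all nucleated cells carry class I, resting microglia carry little of it, and interferons and NF-kB signalling are known to raise its transcription.

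The kept cells numbered 2652 in the sham library at 6 h, 1986 in the irradiated library at 6 h, 1582 in the sham library at 1 week and 2149 in the irradiated library at 1 week, with 9736149, 7365977, 5675117 and 7716334 UMIs. They were 8369 of 8486 deposited barcodes, and the design text states 8095 cells. The median depth was 3437 to 3594 UMIs per cell, so the libraries were alike in depth per cell. Between 4 and 12 barcode sequences were shared by any pair of libraries. All 9 microglia markers had UMIs in all libraries, and their sum was lowest in the irradiated library at 6 h, at 50523 CPM (UMIs scaled to the library total) against 56776 to 60176 CPM in the others. In the order sham and irradiated at 6 h, then sham and irradiated at 1 week, the summed monocyte markers were at 33.2, 32.7, 8.81 and 13.2 CPM, mostly from Plac8 (28.6, 25.4, 5.99 and 7.26 CPM), with Ly6c2 at 0 in all libraries. Border macrophage markers were at 46.9, 47.2, 20.1 and 24.5 CPM, so both sums were lowest in the sham library at 1 week, as were most class I genes below. Neutrophil markers were at 153 to 177 CPM from 2 of 6 genes, mostly Csf3r, with S100a8, S100a9, Retnlg and Mmp9 at 0. Natural killer markers were at 4.89 to 19.2 CPM from 2 of 6 genes, mostly Klrd1, with Nkg7, Gzma, Ncr1 and Prf1 at 0. The summed markers of T cells and of B cells were at or under 0.822 CPM. Astrocyte markers were highest in the irradiated library at 6 h, at 261 CPM against 144 to 182 CPM. Most of this sum came from Slc1a3 alone, at 241 CPM in that library against 141 to 178 CPM. Markers of oligodendrocyte precursors had 4, 51, 0 and 1 UMIs in the same order. The part of these marker sums in the class I levels was not tested beyond the cell sets given further on. Those sets did not use markers of astrocytes, oligodendrocytes, their precursors, neurons or erythroid cells.

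The promoters of the class I genes are shown first because motifs known from class I promoters sit in a short stretch, and the members differ in which of them they hold. RefSeq promoter windows of GRCm38.p6, from 250 bases before to 50 bases after the transcription start, were matched by symbol for 9 of the 10 members. The interferon-response type motif GAANNGAAA was searched on both strands and was found in 7.52% of 32851 promoter windows of this length. The NF-kB type motif GGGGATTCC, in the form known from H2-K1, was found in 0.250% of them. In the stretches below, printed 5′ to 3′ on the strand of the gene, the capitals mark these matches, and the interferon-response type match lies on the opposite strand.

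H2-K1 (chr17:34000419-34000468, minus strand): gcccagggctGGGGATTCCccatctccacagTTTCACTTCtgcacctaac
H2-D1 (chr17:35262913-35262962, plus strand): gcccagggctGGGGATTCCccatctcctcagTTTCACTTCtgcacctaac
H2-Q6 (chr17:35424667-35424716, plus strand): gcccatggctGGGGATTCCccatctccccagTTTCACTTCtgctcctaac
H2-Q7 (chr17:35439012-35439060, plus strand): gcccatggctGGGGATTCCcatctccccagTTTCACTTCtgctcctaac
H2-Q4 (chr17:35379454-35379482, plus strand): atctccccagTTTCACTTCtgctcctaac
H2-M3 (chr17:37270123-37270151, plus strand): tcctctgaggTTTCACTTCtctgtaactc

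The windows of H2-K1, H2-D1, H2-Q6 and H2-Q7 held both motifs side by side, and those of H2-Q4 and H2-M3 held only the interferon-response type. H2-K1 and H2-D1 differed at 1 of the 50 bases shown, and each differed from H2-Q6 at 3. Counted from the RefSeq start, the interferon-response type match lay 90 bases upstream in H2-K1 (104 from a second RefSeq start), 101 in H2-M3, 113 in H2-Q7, 150 in H2-D1, 152 in H2-Q6 and 153 in H2-Q4. The windows of H2-T22, H2-T23 and B2m held neither sequence. The H2-D1 stretch lies inside the GENCODE extent of the gene given below, which begins upstream of the RefSeq start. A match is a description of the letters and no evidence of a bound factor. The shorter motifs ATTGG and TGACG, forms of the CCAAT box and of the core of the CRE, were in 37.4% and 20.8% of all windows. ATTGG was in the windows of all 9 members, and TGACG was in all but those of H2-Q6 and H2-T23.

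H2-K1 (ENSMUSG00000061232, GRCm38 chr17:33996017-34000347, minus strand, protein coding) encodes a classical heavy chain. It had 3859 UMIs in the sham library at 6 h, 8856 in the irradiated library at 6 h, 1919 in the sham library at 1 week and 2975 in the irradiated library at 1 week. As CPM of the library total, the levels were 396 (384 to 409), 1202 (1177 to 1228), 338 (323 to 354) and 386 (372 to 400) in the same order. The irradiated library at 6 h stood far above the other 3, and the intervals of the sham library at 6 h and the irradiated library at 1 week overlapped. The log2 fold of irradiated to sham at 6 h was 1.60 (1.55 to 1.66), a 3.03-fold higher level. At 1 week the log2 fold was 0.19 (0.11 to 0.27).

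H2-D1 (ENSMUSG00000073411, GRCm38 chr17:35262730-35267499, plus strand), the other classical heavy chain of this strain, had 8675, 9754, 2789 and 4793 UMIs in the order sham and irradiated at 6 h, then sham and irradiated at 1 week. These were 891 (872 to 910), 1324 (1298 to 1351), 491 (473 to 510) and 621 (604 to 639) CPM, with no overlap between any pair of libraries. The log2 fold of irradiated to sham was 0.57 (0.53 to 0.61) at 6 h and 0.34 (0.27 to 0.41) at 1 week. The sham libraries differed by more than either of these, with sham at 1 week against sham at 6 h at -0.86 (-0.92 to -0.80). The irradiated level at 1 week therefore lay above its own sham and below the sham library at 6 h.

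The classical pair did not differ by the same amount between libraries. H2-K1 gave 30.8% (30.0 to 31.6%, exact Clopper-Pearson) of the UMIs of the pair in the sham library at 6 h and 47.6% (46.9 to 48.3%) in the irradiated library at 6 h. The share was 40.8% (39.4 to 42.2%) in the sham library at 1 week and 38.3% (37.2 to 39.4%) in the irradiated library at 1 week. The irradiated library at 6 h thus had the highest share of H2-K1, and the sham library at 6 h the lowest. None of 401 windows of 100 bases in the last 500 bases of either transcript was shared exactly with a transcript of another gene, so reads from these ends can be told apart in the GENCODE vM21 annotation.

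**Figure D1:**
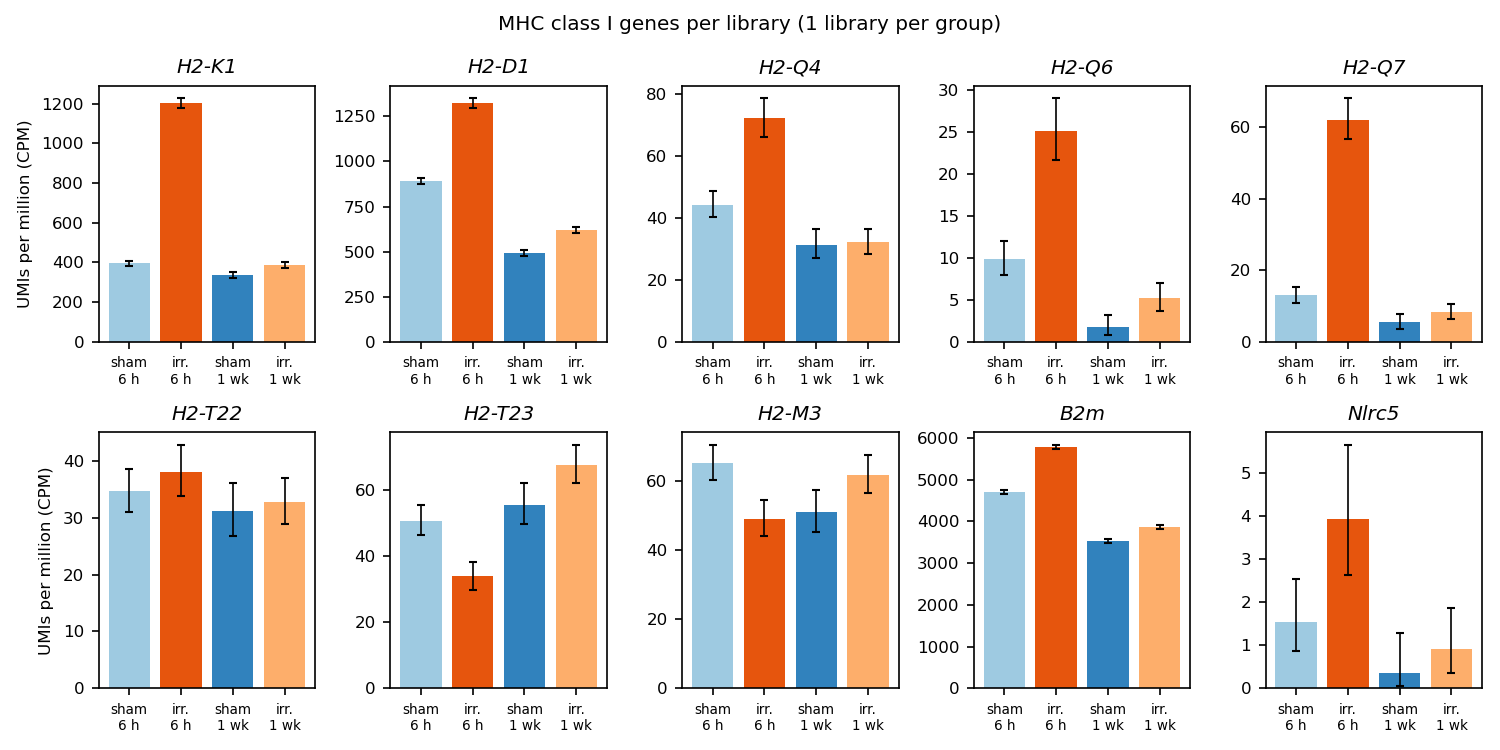
Level of each of the 10 class I genes in the 4 libraries, in CPM of the library total (linear axes from 0, a scale of its own for each gene); bars are single libraries and whiskers 95% counting intervals. H2-K1 stood at 1202 CPM in the irradiated library at 6 h and at 338 to 396 CPM in the others, while H2-T23 and H2-M3 were lowest in that library.

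The H2-Q genes encode the Qa family of nonclassical heavy chains, and H2-Q6 and H2-Q7 encode forms of Qa-2. H2-Q7 (ENSMUSG00000060550, GRCm38 chr17:35439155-35443773, plus strand) had 126, 457, 31 and 64 UMIs, or 12.9 (10.8 to 15.4), 62.0 (56.5 to 68.0), 5.46 (3.71 to 7.75) and 8.29 (6.39 to 10.6) CPM, in the same order of libraries. It had the highest log2 fold of the members with 50 UMIs or more at 6 h, 2.26 (1.97 to 2.56), a 4.79-fold higher level in the irradiated library. At 1 week its log2 fold was 0.60 (-0.04 to 1.27), and the intervals of the libraries overlapped.

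H2-Q6 (ENSMUSG00000073409, GRCm38 chr17:35424850-35430055, plus strand) had 96, 185, 10 and 40 UMIs, or 9.86 (7.99 to 12.04), 25.1 (21.6 to 29.0), 1.76 (0.845 to 3.24) and 5.18 (3.70 to 7.06) CPM. Its log2 fold was 1.35 (0.99 to 1.72) at 6 h and 1.56 (0.53 to 2.72) at 1 week, the latter resting on 40 against 10 UMIs. H2-Q4 (ENSMUSG00000035929, GRCm38 chr17:35379617-35385290, plus strand) had 431, 532, 178 and 248 UMIs, or 44.3 (40.2 to 48.7), 72.2 (66.2 to 78.6), 31.4 (26.9 to 36.3) and 32.1 (28.3 to 36.4) CPM. Its log2 fold was 0.71 (0.52 to 0.89) at 6 h and 0.04 (-0.25 to 0.32) at 1 week. All 3 were highest in the irradiated library at 6 h, lowest in the sham library at 1 week and higher in sham at 6 h than in irradiated at 1 week.

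Because the H2-Q genes are near copies of each other, they were also summed with the other H2-Q symbols. The H2-Q family stood at 68.4, 162, 40.5 and 47.6 CPM, with a log2 fold of 1.24 (1.10 to 1.38) at 6 h and 0.23 (-0.01 to 0.48) at 1 week. The transcript ends of H2-Q7 shared no window with another gene. Those of H2-Q4 shared 6.48% of windows, with Gm43321, Olfr1238, Olfr552 and Gm8956. Those of H2-Q6 shared 6.23%, with H2-Q4 and with Gm28625, Cd59b, Efr3a and Gm43558. These windows were thus mostly not shared within the H2-Q genes. The other H2-Q symbols added few UMIs to the sum. H2-Q10 had 13 and 16 of the 666 and 1190 family UMIs in sham and irradiated at 6 h, and H2-Q1 and H2-Q2 had 0. H2-Q5, H2-Q8 and H2-Q9 were not in the matrices. The family sum was thus nearly that of the 3 genes, and it cannot check how reads were assigned among them.

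The remaining nonclassical heavy chains did not share this pattern. H2-T23 (ENSMUSG00000067212, GRCm38 chr17:36029773-36032855, minus strand), which encodes Qa-1, the ligand of CD94/NKG2 receptors, had 495, 250, 316 and 523 UMIs. Its levels were 50.8 (46.5 to 55.5), 33.9 (29.9 to 38.4), 55.7 (49.7 to 62.2) and 67.8 (62.1 to 73.8) CPM, lowest in the irradiated library at 6 h. The log2 fold was -0.58 (-0.81 to -0.36) at 6 h, just short of 1.5-fold, and 0.28 (0.08 to 0.49) at 1 week. The sham libraries stood within 0.13 (-0.08 to 0.34) of each other, and their intervals overlapped. Of the windows at the end of the H2-T23 transcript, 9.73% were shared, with Rab33b and Hook2.

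H2-M3 (ENSMUSG00000016206, GRCm38 chr17:37270220-37274484, plus strand), which presents peptides with a formylated methionine, had 636, 362, 290 and 478 UMIs. Its levels were 65.3 (60.3 to 70.6), 49.1 (44.2 to 54.5), 51.1 (45.4 to 57.3) and 61.9 (56.5 to 67.8) CPM. The log2 fold was -0.41 (-0.60 to -0.22) at 6 h and 0.28 (0.06 to 0.49) at 1 week. The irradiated library at 6 h and the sham library at 1 week had overlapping intervals, as did the other 2.

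H2-T22 (ENSMUSG00000056116, GRCm38 chr17:36037128-36042747, minus strand), a ligand of some gamma delta T cells, had 338, 281, 177 and 253 UMIs. Its levels were 34.7 (31.1 to 38.6), 38.1 (33.8 to 42.9), 31.2 (26.8 to 36.1) and 32.8 (28.9 to 37.1) CPM, and the intervals of all 4 libraries overlapped. The log2 fold was 0.14 (-0.10 to 0.37) at 6 h and 0.07 (-0.21 to 0.36) at 1 week. Of its windows 21.2% were shared with H2-T10, so part of its reads cannot be assigned. H2-T10 was not among the symbols of the matrices. How such reads were counted is not known, and the family sum does not settle it. Summed, the H2-T family had a log2 fold of -0.26 (-0.41 to -0.11) at 6 h and 0.17 (0.01 to 0.33) at 1 week.

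B2m (ENSMUSG00000060802, GRCm38 chr2:122147686-122153083, plus strand), the light chain of all these molecules, had 45748, 42605, 20066 and 29791 UMIs. Its levels were 4699 (4656 to 4742), 5784 (5729 to 5839), 3536 (3487 to 3585) and 3861 (3817 to 3905) CPM, in the same order of libraries as H2-D1 from highest to lowest. The log2 fold was 0.30 (0.28 to 0.32) at 6 h and 0.13 (0.10 to 0.15) at 1 week, and -0.41 (-0.43 to -0.39) between the sham libraries. The light chain thus differed less at 6 h than the classical heavy chains did. For every 100 B2m UMIs there were 27.4 UMIs of H2-K1 and H2-D1 in the sham library at 6 h, 43.7 in the irradiated library at 6 h, 23.5 in the sham library at 1 week and 26.1 in the irradiated library at 1 week.

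Nlrc5 (ENSMUSG00000074151, GRCm38 chr8:94434356-94527272, plus strand) was near the limit of detection, with 15, 29, 2 and 7 UMIs, or 1.54, 3.94, 0.352 and 0.907 CPM. The log2 fold was 1.35 (0.41 to 2.36) at 6 h and 1.36 (-1.03 to 4.67) at 1 week. It had fewer than 50 UMIs over both libraries of each comparison and was left out of the counts below. Its level was highest in the irradiated library at 6 h, as for H2-K1, H2-D1, the H2-Q genes and B2m.

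Counted at 1.5-fold over the 9 members with 50 UMIs or more, 4 were higher in irradiated than in sham at 6 h (H2-K1, H2-Q4, H2-Q6 and H2-Q7) and 0 were lower. Of all 9934 genes measured in that comparison, 8.97% were higher and 9.31% lower by this rule. The median log2 fold was 0.57 over the members and -0.06 over all genes. At 1 week 2 members were higher (H2-Q6 and H2-Q7) and 0 lower, where 4.01% of 9518 genes were higher and 3.12% lower, and the medians were 0.28 and 0.04. The H2-Q7 value at 1 week was 1.52-fold, with an interval that held 0 on the log2 scale, so the count at 1 week rests on genes with few UMIs.

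Between the sham libraries, 0 members were higher and 3 were lower at 1 week than at 6 h (H2-D1, H2-Q6 and H2-Q7), where 2.89% of 9728 genes were higher and 4.89% lower. The medians were -0.41 over the members and -0.05 over all genes. H2-K1 stood at -0.23 (-0.31 to -0.15), H2-Q4 at -0.50 (-0.76 to -0.24), H2-Q6 at -2.48 (-3.59 to -1.54), H2-Q7 at -1.24 (-1.86 to -0.67), H2-T22 at -0.15 (-0.43 to 0.11) and H2-M3 at -0.35 (-0.56 to -0.15). The untreated libraries thus differed in class I by an amount that bears on every fold to a single sham. The time, the age of the mice and the library cannot be told apart, since there was 1 sham library at each time.

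Each irradiated library was therefore also set against the sham library of the other time. Against the sham library at 1 week, the irradiated library at 6 h had 6 members higher and 1 lower, where 11.8% of 9527 genes were higher and 9.51% lower, with medians of 1.20 and -0.01. H2-K1 stood at 1.83 (1.76 to 1.90), H2-D1 at 1.43 (1.37 to 1.49), H2-Q4 at 1.20 (0.96 to 1.46), H2-Q6 at 3.83 (2.92 to 4.92), H2-Q7 at 3.51 (2.98 to 4.08), B2m at 0.71 (0.69 to 0.73) and H2-T23 at -0.71 (-0.96 to -0.47). H2-K1 and the H2-Q genes were thus above both sham libraries at 6 h by 1.5-fold or more, and H2-D1 and B2m were above both but reached 1.5-fold against the later sham only. H2-T22 stood at 0.29 (0.01 to 0.57). H2-T23 was below both, and H2-M3 was level with the later sham at -0.06 (-0.28 to 0.17).

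Against the sham library at 6 h, the irradiated library at 1 week had 0 members higher and 2 lower, where 3.81% of 9917 genes were higher and 4.83% lower, with medians of -0.28 and -0.01. H2-K1 stood at -0.04 (-0.11 to 0.03), H2-D1 at -0.52 (-0.57 to -0.47), H2-Q4 at -0.46 (-0.69 to -0.23), H2-Q6 at -0.93 (-1.50 to -0.38), H2-Q7 at -0.64 (-1.10 to -0.20) and B2m at -0.28 (-0.30 to -0.26). These 6 genes had positive log2 folds to the sham of the same time and negative ones to the sham at 6 h, where the interval of H2-K1 held 0. H2-T22 and H2-M3 were both at -0.08, with intervals that held 0. H2-T23 alone stood above both shams at 1 week, at 0.41 (0.23 to 0.60) against the sham at 6 h. From the irradiated library at 6 h to that at 1 week, 5 members were lower and 1, H2-T23, was higher, where 10.5% of 9761 genes were lower and 9.3% higher, with medians of -1.09 and 0.04. H2-K1 stood at -1.64 (-1.70 to -1.58), H2-D1 at -1.09, H2-Q4 at -1.17, H2-Q6 at -2.28, H2-Q7 at -2.90, B2m at -0.58 and H2-T23 at 0.998 (0.78 to 1.22) in that comparison. H2-T22 and H2-M3 were at -0.22 (-0.47 to 0.03) and 0.33 (0.13 to 0.54). These comparisons share libraries with those above and are not independent of them.

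**Figure D2:**
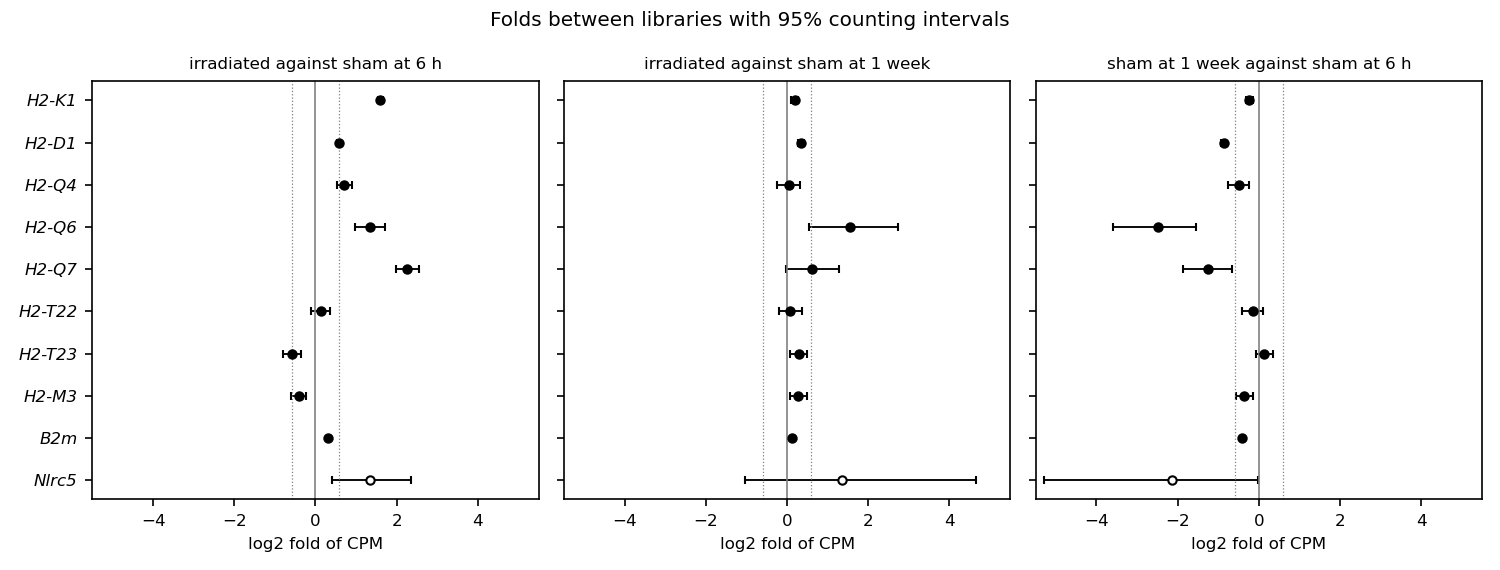
Log2 fold of CPM of each class I gene (rows) in irradiated against sham at 6 h, irradiated against sham at 1 week, and sham at 1 week against sham at 6 h; points are ratios of single libraries, whiskers 95% counting intervals, dotted lines 1.5-fold, and the open point Nlrc5, with fewer than 50 UMIs. H2-K1 at 1.60 and H2-Q7 at 2.26 lie right of the dotted line at 6 h, and H2-D1 at -0.86 lies left of it between the sham libraries.

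A level summed over a library can differ because a few cells carry much or because most cells carry a little more. Each cell was therefore thinned at random to 2000 UMIs, and the 93, 90, 189 and 109 shallower cells were left out, which left 2559, 1896, 1393 and 2040 cells. H2-K1 was then detected in 43.7% (41.8 to 45.7%) of cells of the sham library at 6 h and in 77.4% (75.5 to 79.3%) of the irradiated library at 6 h. At 1 week it was detected in 47.1% (44.4 to 49.8%) of sham and 47.3% (45.1 to 49.4%) of irradiated cells. Without thinning, the shares were 60.4, 86.5, 61.5 and 65.0%. Class I is carried by nearly all nucleated cells, so no cell type in these libraries could give the share that free RNA alone would produce.

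The H2-K1 difference at 6 h was seen in the median cell and in the classes with several UMIs. The median cell had 0 UMIs of H2-K1 in the sham library at 6 h and 2 in the irradiated library at 6 h, and 0 in both libraries at 1 week. Cells with 3 to 5 UMIs made up 6.53% of the sham library and 27.0% of the irradiated library at 6 h, and cells with 6 to 10 made up 0.742% and 9.81%. With the 10% of cells highest in H2-K1 left out of each library, the log2 fold at 6 h was 1.98, against 1.65 over all thinned cells. The cells left out were chosen by the count that is compared. They held 45.6% of the H2-K1 UMIs of the sham library and 31.6% of the irradiated library at 6 h. The higher fold thus follows from the choice and is not read further. By the medians and the classes of UMIs, the difference was not held by a few high cells.

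H2-D1 was detected at 6 h in 66.1% (64.2 to 68.0%) of sham cells and 78.2% (76.3 to 80.1%) of irradiated cells, and at 1 week in 55.1% (52.4 to 57.7%) and 62.0% (59.9 to 64.1%). Without thinning these were 79.8, 87.7, 69.3 and 74.5%. The sham library at 6 h already held high cells, with 4.65% of cells at 6 to 10 UMIs and 1.52% above 10, against 1.08% and 0.0718% in the sham library at 1 week. Relative to its mean, the variance of H2-D1 over cells was highest in the sham library at 6 h, with a variance to mean ratio (Fano factor) of 3.18 against 2.97 in the irradiated library at 6 h, 1.77 in the sham library at 1 week and 1.90 in the irradiated library at 1 week. Without the 10% of cells highest in it, the log2 fold of H2-D1 at 6 h was 0.66, against 0.51 over all thinned cells. These cells too were chosen by the count that is compared, so the higher fold is not read further.

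B2m was detected in 99.5% or more of cells in all libraries, and its median was 8, 10, 6 and 7 UMIs per cell of 2000 drawn. Cells with more than 10 UMIs of B2m were 30.2% of sham and 45.5% of irradiated cells at 6 h, and 14.6% of sham and 19.4% of irradiated cells at 1 week. The whole distribution of B2m lay higher in the irradiated library at 6 h.

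**Figure D3:**
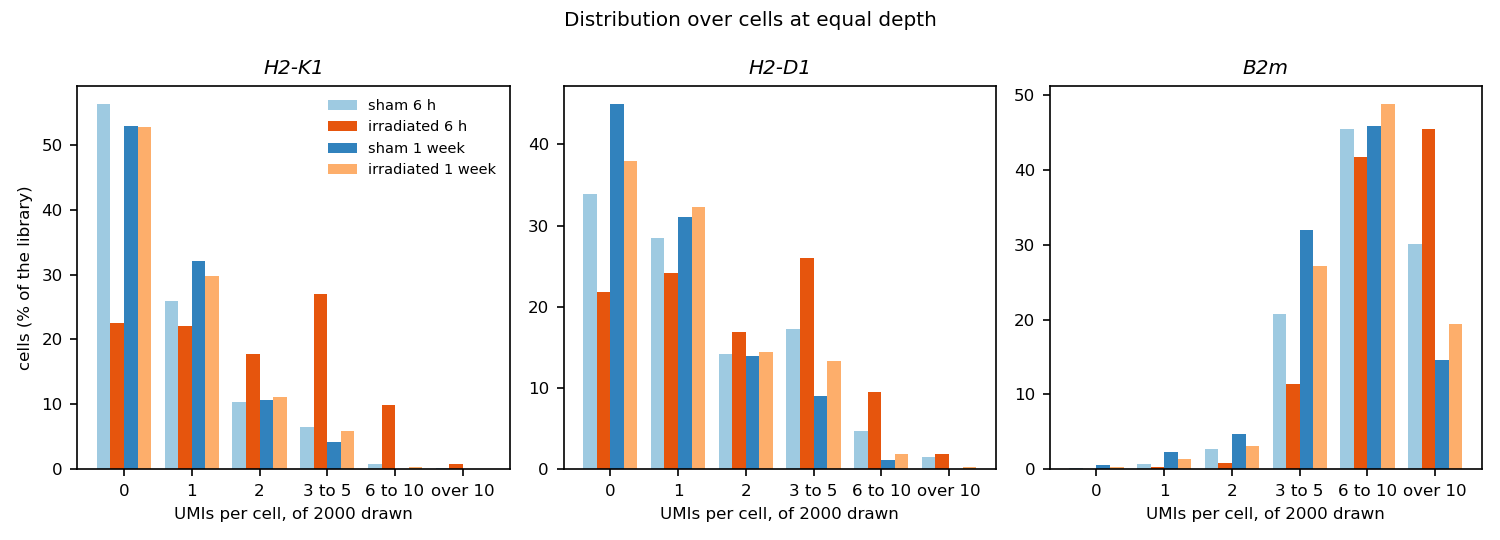
Share of cells (percent of the library) by the number of UMIs of H2-K1, H2-D1 and B2m among 2000 UMIs drawn from each cell; bars are single libraries. Cells with 0 UMIs of H2-K1 were 22.6% of the irradiated library at 6 h and 52.7 to 56.3% of the others.

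The nonclassical genes were seen in a minority of cells at this depth. H2-Q7 was detected in 1.99% (1.49 to 2.61%), 7.75% (6.59 to 9.05%), 1.01% (0.551 to 1.68%) and 1.52% (1.03 to 2.15%) of cells in the order sham and irradiated at 6 h, then sham and irradiated at 1 week. Unthinned, its shares were 3.70, 11.7, 1.71 and 2.61%. H2-T23 was detected in 9.22% (8.13 to 10.4%), 6.12% (5.08 to 7.29%), 10.6% (8.99 to 12.3%) and 12.01% (10.6 to 13.5%) of cells, lowest in the irradiated library at 6 h as in the summed level. The shares were 8.48, 11.3, 5.74 and 5.59% for H2-Q4, 1.56, 3.53, 0.431 and 0.882% for H2-Q6, 6.14, 8.12, 6.32 and 6.52% for H2-T22 and 12.1, 8.39, 9.69 and 11.4% for H2-M3. Nlrc5 was found in 4, 12, 1 and 2 cells.

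Counting how many of the 10 members had a UMI in the same thinned cell, the median was 3 members in the irradiated library at 6 h and 2 in each of the others. Cells with exactly 3 members were 44.9% of the irradiated library at 6 h and 30.3 to 32.4% of the others. Across cells of 1 library, H2-K1 and H2-D1 had a Spearman correlation of 0.32 in the sham library at 6 h, 0.46 in the irradiated library at 6 h, 0.15 in the sham library at 1 week and 0.20 in the irradiated library at 1 week. The cells share a library and an equal depth, so these are descriptions of the cells and not tests.

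Class I genes are known interferon targets, and 38 interferon-response genes other than the members were counted in the same cells. Of those with 50 UMIs or more, 22 of 37 were at least 1.5-fold higher and 1 lower in irradiated than in sham at 6 h, with a median log2 fold of 0.68. At 1 week 12 of 33 were higher and 0 lower, with a median of 0.37. Over all measured genes, 8.97% were higher and 9.31% lower at 6 h, and 4.01% and 3.12% at 1 week. Between the sham libraries, 26 of 36 were lower and 0 higher at 1 week, with a median of -0.81. In that comparison 4.89% of all measured genes were lower and 2.89% higher. The list was thus, like H2-D1 and the H2-Q genes, also lower in the later of the sham libraries.

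The thinned cells were then split by their UMIs from this list into classes with 0, with 1 or 2, and with 3 or more. The abundant genes of the list weigh most in this sum, as Bst2 at 154 to 474 CPM against Ifit1 at 6.87 to 37.3 CPM. The upper class has no upper limit, so its counts can differ between libraries. These classes are ranges of a count and not cell types, and 474, 372, 312 and 459 cells lay at 2 UMIs and 273, 254, 162 and 273 at 3. The upper class held 35.1% (33.3 to 37.0%) of sham and 43.8% (41.5 to 46.0%) of irradiated cells at 6 h, and 23.3% (21.1 to 25.6%) of sham and 35.9% (33.8 to 38.1%) of irradiated cells at 1 week.

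In all libraries H2-D1 and B2m were higher in cells with more UMIs of interferon-response genes. Mean H2-D1 UMIs per cell in the lowest, middle and upper class were 1.08, 1.54 and 2.44 in the sham library at 6 h, 1.75, 2.02 and 3.21 in the irradiated library at 6 h, 0.874, 0.965 and 1.18 in the sham library at 1 week and 0.991, 1.16 and 1.45 in the irradiated library at 1 week. For B2m they were 7.72, 8.20 and 11.2, then 9.49, 9.87 and 13.3, then 6.58, 6.76 and 7.59, and 6.84, 7.42 and 8.28 in the same order of libraries. For H2-K1 the means were 0.535, 0.607 and 1.09 in the sham library at 6 h and 1.88, 1.96 and 2.98 in the irradiated library at 6 h. At 1 week they were 0.668, 0.654 and 0.762 in sham and 0.666, 0.691 and 0.868 in irradiated cells. The upper class gave 71.9% of the H2-Q7 UMIs of the sham library at 6 h, 41 UMIs, and 74.5% of those of the irradiated library at 6 h, 158 UMIs.

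In cells without a UMI of the interferon list, the log2 fold of irradiated to sham at 6 h was 1.82 (1.61 to 2.02) for H2-K1. Over all thinned cells it was 1.65. In the cells without a UMI of the list it was 0.70 (0.53 to 0.87) for H2-D1 and 0.30 (0.23 to 0.37) for B2m. For H2-Q7 it was 3.18 (1.34 to 5.62), with 14 against 3 UMIs there. In the upper class the log2 fold was 1.45 (1.34 to 1.55) for H2-K1, 0.40 (0.31 to 0.48) for H2-D1 and 0.24 (0.20 to 0.28) for B2m. The mean of H2-K1 was 1.88 UMIs in the lowest irradiated class at 6 h and 1.09 in the upper class of the sham library at 6 h. A cell with 0 UMIs of the list at this depth may still express its genes. At 6 h 22 of 37 genes of the list were themselves higher in the irradiated library, so a class need not hold like cells in both libraries. The part of interferon in these folds was not tested.

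At 1 week, cells without a UMI of the list had log2 folds of -0.0042 (-0.27 to 0.26) for H2-K1, 0.18 (-0.04 to 0.41) for H2-D1 and 0.06 (-0.03 to 0.14) for B2m, all with intervals that held 0. In the upper class at 1 week they were 0.19 (-0.03 to 0.40), 0.30 (0.13 to 0.47) and 0.13 (0.06 to 0.19). Between the sham libraries, the H2-D1 log2 fold was -0.30 (-0.50 to -0.10) in the lowest class and -1.05 (-1.21 to -0.89) in the upper class. H2-K1 had opposite signs there, at 0.32 (0.07 to 0.57) in the lowest class and -0.52 (-0.73 to -0.32) in the upper class, and these differences between classes were not tested.

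**Figure D4:**
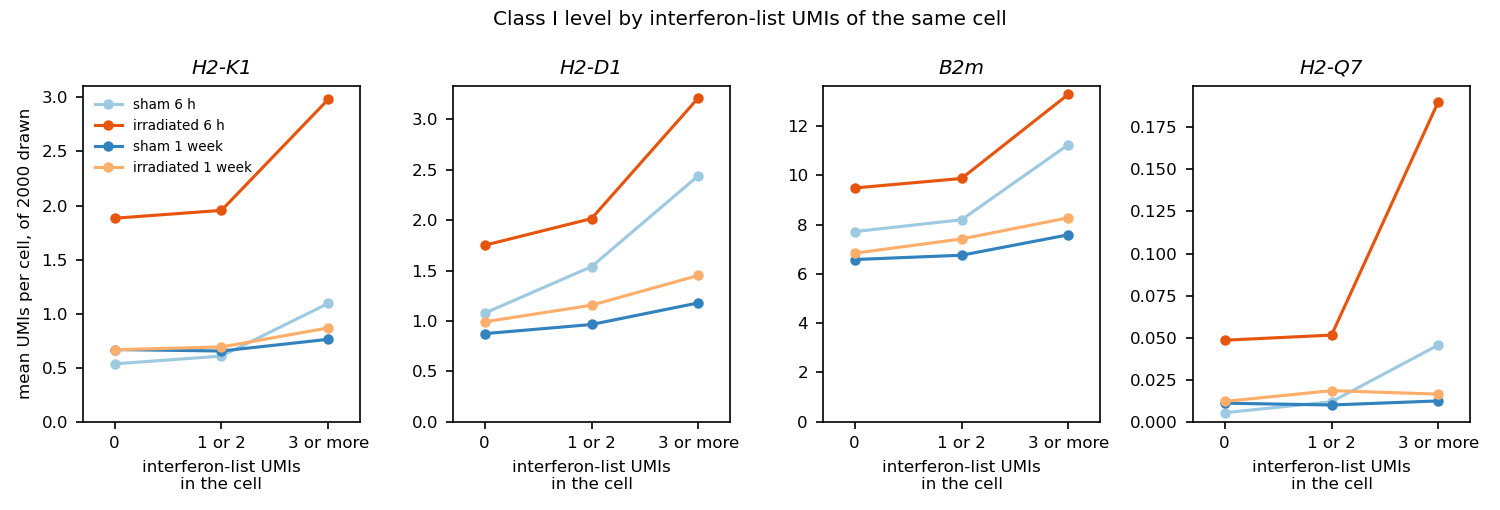
Mean UMIs per cell, of 2000 drawn, of H2-K1, H2-D1, B2m and H2-Q7 (linear axes from 0) in cells with 0, with 1 or 2, and with 3 or more UMIs of 38 interferon-response genes; each line is 1 library and no error is drawn. The irradiated line at 6 h lies above the other lines for all 4 genes, for H2-K1 at 1.88 to 2.98.

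Class I molecules need peptides and a loading machinery, and 16 genes of antigen processing and peptide loading were all measured. At 6 h 2 were higher (Tap1 and Npepps) and 1 lower (Ide), with a median log2 fold of 0.05. For this list and those that follow, the shares over all measured genes were 8.97% higher and 9.31% lower at 6 h. At 1 week these shares were 4.01% and 3.12%. The counts of the antigen processing list at 6 h were near the shares over all genes. Tap1, a subunit of the peptide transporter into the endoplasmic reticulum, stood at 53.1, 107, 42.8 and 74.8 CPM, with log2 folds of 1.01 (0.85 to 1.18) at 6 h, 0.80 (0.59 to 1.03) at 1 week and -0.31 (-0.54 to -0.09) between the shams. It was the only gene of the list past 1.5-fold at 1 week. Npepps, a cytosolic aminopeptidase, stood at 0.79, 0.35 and 0.11 in these comparisons, and Ide, the insulin-degrading enzyme, at -0.77, 0.28 and -0.10. Psmb8, an inducible proteasome subunit, stood at -0.51 (-0.61 to -0.41), -0.16 (-0.27 to -0.06) and 0.02 (-0.08 to 0.12), so it did not follow H2-K1.

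Of 24 regulators of class I transcription, 1 was higher (Stat2) and 1 lower (Ezh2) at 6 h, with a median log2 fold of -0.21. Stat2, a transducer of type I interferon signalling that also stands in the interferon list, had 0.64 (0.32 to 0.97) at 6 h, -0.46 (-0.94 to 0.02) at 1 week and -0.19 (-0.61 to 0.22) between the shams. Ezh2, which writes a repressive histone mark, had -1.18 (-1.72 to -0.67), 0.56 (0.13 to 1.00) and -0.15 (-0.59 to 0.29). Irf1, a factor that binds class I promoters, was at -0.54 (-0.79 to -0.29) at 6 h, -0.15 at 1 week and 0.16 between the shams. Ifngr1, a chain of the interferon gamma receptor, was at -0.52, 0.19 and -0.21. At 1 week 0 of the 24 were higher and 1 lower, with a median of -0.05.

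Of 14 other class I and class I-like genes in the matrices, 5 had 50 UMIs or more. At 6 h 0 of them were at least 1.5-fold higher and 2 were lower (Hfe and Fcgrt), with a median log2 fold of -0.32. Hfe, which controls iron uptake and pairs with B2m, stood at 175, 89.1, 157 and 177 CPM, a log2 fold of -0.97 (-1.11 to -0.84) at 6 h and 0.17 (0.05 to 0.29) at 1 week. Fcgrt, the neonatal Fc receptor, which also pairs with B2m, stood at 197, 107, 176 and 181 CPM, with -0.88 (-0.998 to -0.76) and 0.05 (-0.07 to 0.16). Cd1d1, which presents lipids, was at -0.19 (-0.51 to 0.12) at 6 h and -1.02 (-1.38 to -0.66) at 1 week, and H2-T24 at -0.32 (-0.77 to 0.11) and -0.29 (-0.85 to 0.27). The remaining gene, Mr1, which presents vitamin B metabolites, was at 0.16 (-0.18 to 0.51) and 0.32 (-0.11 to 0.76). Between the shams, Hfe, Fcgrt, Cd1d1 and H2-T24 were at -0.16, -0.16, 0.40 and -0.39.

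Of 13 listed receptors, which read class I or are related to such receptors or to calreticulin binding, 6 were measured. At 6 h 2 were higher (Lilrb4a and Lrp1) and 1 lower (Klrd1), with a median log2 fold of 0.36. Pirb, the inhibitory receptor that binds class I in mice, stood at 13.5, 15.3, 12.2 and 10.2 CPM, with intervals that held 0 at 6 h (0.19, -0.19 to 0.56) and at 1 week (-0.25, -0.73 to 0.24). Lilrb4a, an inhibitory receptor of the family that binds class I in humans, stood at 2.88, 32.3, 6.34 and 1.81 CPM, a log2 fold of 3.49 (2.92 to 4.11) at 6 h and -1.81 (-2.81 to -0.88) at 1 week. Klrd1, the CD94 chain that reads the H2-T23 product, stood at 15.0, 4.75, 19.0 and 9.33 CPM, with -1.66 (-2.23 to -1.12) and -1.03 (-1.48 to -0.58). Klrd1 and the H2-T23 ligand were both lowest in the irradiated library at 6 h. At 1 week their log2 folds had opposite signs, at -1.03 for Klrd1 and 0.28 for H2-T23. Klrc1 and Klrc2, which encode NKG2 chains, had 0 UMIs in all libraries. Lrp1, a receptor that binds calreticulin, was at 0.81 (0.72 to 0.90) at 6 h and 0.18 at 1 week, and Pilra at 0.54 (0.31 to 0.77) and 0.11. Between the shams, Lilrb4a, Klrd1, Lrp1 and Pilra were at 1.14, 0.34, 0.09 and -0.01.

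Class II genes, the markers of cells that present to CD4 T cells, were measured for 9 of 10. At 6 h 4 were higher, H2-Aa at 4.78 (3.71 to 6.12), H2-Eb1 at 4.24 (3.06 to 5.73), H2-Ab1 at 1.71 (1.38 to 2.04) and Cd74 at 2.68 (2.55 to 2.81), and 1 was lower, H2-DMb2 at -0.87 (-1.42 to -0.35). The other 4 measured were at -0.54 to -0.30, namely H2-DMa, H2-DMb1, H2-Oa and H2-Ob, and the median of the list was -0.30. At 1 week Cd74 was at -1.40 and H2-Ab1 at -1.48, and between the shams at -0.34 and 0.47. H2-Aa and H2-Eb1 had 7, 146, 4 and 3 and 6, 86, 7 and 3 UMIs. Cells with at least 2 UMIs summed over H2-Aa, H2-Ab1 and H2-Eb1 numbered 8, 18, 9 and 2. In the irradiated library at 6 h, the 18 such cells were 0.906% of the library and held 135 of its 146 H2-Aa UMIs. They were chosen in part by H2-Aa itself. The H2-Aa fold at 6 h thus rests on few cells and does not describe most cells of the library. With the cells that had at least 2 class II UMIs left out of all libraries, H2-K1 stood at 395, 1196, 336 and 386 CPM, close to its levels over all cells. This was a choice made after seeing the data.

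Cells with marker UMIs of other lineages were also set aside. These were markers of monocytes, border macrophages, neutrophils, B, T, natural killer and dendritic cells and endothelium. Cells with at least 2 UMIs summed over the markers of other lineages, or with fewer than 5 of the 9 microglia markers, numbered 604, 457, 331 and 428. Only 6, 21, 1 and 2 cells had fewer than 5 microglia markers. Many marker UMIs came from single genes, with Csf3r at 1491 of the 1508 neutrophil marker UMIs in sham at 6 h. Neither this split nor its use among the alternatives below can thus be read as a removal of other cell types. In the remaining 2048, 1529, 1251 and 1721 cells, H2-K1 stood at 371, 1161, 340 and 374 CPM, H2-D1 at 853, 1251, 474 and 614 CPM and H2-Q7 at 12.3, 47.0, 4.84 and 7.41 CPM. The order of libraries was unchanged for H2-D1 and H2-Q7, and for H2-K1 the sham library at 6 h and the irradiated library at 1 week changed places. The log2 fold at 6 h in these cells was 1.65 for H2-K1 and 1.93 for H2-Q7. The H2-Q7 level of the irradiated library at 6 h was 106 CPM in its 442 cells with UMIs of other lineages.

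The 5 genes whose pattern over the 4 libraries was nearest to that of a member were found among 6888 other genes with at least 400 UMIs, by Euclidean distance between log2 CPM values centred on their own mean. For H2-K1 they were Abhd4 at 0.210, Rps18-ps3 at 0.240, Gnl3 at 0.250, Tmem245 at 0.262 and Prkar1b at 0.306, where the pattern of H2-K1 itself has a size of 1.47 from its mean. Abhd4 stood at 29.9, 104, 26.3 and 34.6 CPM. For H2-Q7, with a size of 2.65, the nearest were Gas2l3 at 0.560, Ifit2 at 0.665, S100a11 at 0.764, Isg15 at 0.769 and Loxl2 at 0.793. Of these 5, Ifit2 and Isg15 are in the interferon list. For B2m, with a size of 0.547, the nearest were Vps35 at 0.023, Parp12 at 0.046, Slc38a7 at 0.048, Zc3hav1 at 0.048 and Spata5 at 0.051. The distances rest on 4 libraries.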

How the data were processed

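For each of the 4 libraries, 1 deposited matrix gave raw UMI counts by gene and barcode. Per the submitters' processing notes, Cell Ranger 2.0 and mm10 were used. The barcode threshold was not given in the sources used here, nor was the annotation release. Barcodes were kept from 1000 UMIs and 500 genes with at most 10% mitochondrial UMIs. Scrublet (scanpy 1.11.5, expected rate 0.06) marked 45 of the kept cells (0.538%), which stayed in except in an alternative, so doublets can remain among the cells. UMIs were summed per library and scaled to CPM of the library total. The log2 ratio of CPM carries the exact conditional binomial 95% interval, and shares of cells the Clopper-Pearson 95% interval. A gene was counted from 50 UMIs over both libraries and called from 1.5-fold. The calculations were tested on simulated data. No cells were clustered. Coordinates are from GENCODE vM21 (GRCm38). Of 223 listed symbols, 15 were not matched in the matrices.

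The members and lists were chosen with earlier results of these data known. All members are named, and of each related list the 4 with the highest absolute log2 fold at 6 h. The alternatives were all barcodes, a stricter filter (2000 UMIs, 1000 genes, 5% mitochondrial), doublets, cells of other lineages or cells with class II UMIs left out, the mean of each cell's CPM, TMM (edgeR 4.0.16, R 4.3.3), median-of-ratios, no or a higher UMI minimum (200), and other thinning depths. UMIs count molecules, yet intervals cover counting error only.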

Additional observations from a re-analysis of the deposited data

Results flagged for a closer look

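H2-T23 and H2-M3 had opposite signs at the 2 times after irradiation. The log2 fold of irradiated to sham was -0.58 at 6 h and 0.28 at 1 week for H2-T23, and -0.41 at 6 h and 0.28 at 1 week for H2-M3. For H2-M3 the signs rest on the sham of the same time. Set against the sham of the other time, as given above, H2-M3 was near level at both times, while H2-T23 kept its signs. Each value is a ratio of 2 single libraries, so the difference between the times was not tested.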

How the results depend on the processing

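No paired analysis was possible because each group was 1 library. The 36 log2 folds of members and families were recomputed under 8 alternatives, which gave 288 values. Of these 3 changed sign, all near 0 (H2-Q4 at 1 week, -0.05 with the mean of each cell's CPM; the H2-T family between the shams, 0.06 without cells of other lineages and 0.02 with median-of-ratios scaling). The count of members lower at 6 h was 1 in place of 0 without called doublets, without cells with class II UMIs and with the mean of each cell's CPM, where H2-T23 was at -0.59, -0.59 and -0.62. The count of members higher at 1 week was 1 in place of 2 with all barcodes, with the stricter filter, without cells of other lineages and with median-of-ratios scaling, and 0 at a minimum of 200 UMIs. With the stricter filter and without cells of other lineages, H2-Q6 dropped under 50 UMIs while its log2 fold was 1.62 and 1.77, against 1.56. At the minimum of 200 UMIs, the count of members lower in sham at 1 week than at 6 h was 1 in place of 3. H2-D1 passed 1.5-fold at 6 h with TMM (0.60) and median-of-ratios scaling (0.63), and H2-Q7 at 1 week was at 0.58 with all barcodes and with median-of-ratios scaling. Scaling moved values by at most 0.05. The depth limits Nlrc5 and H2-Q6, with as few as 2 and 10 UMIs in a library, and 1 library per group limits all differences.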
